A study of Homo sapiens with 4 samples.

Results

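The 3 genes of the fibrinogen chains, FGA (alpha), FGB (beta) and FGG (gamma), were examined together with 2 genes whose products carry a fibrinogen-like domain, FGL1 (hepassocin) and ANGPTL4 (angiopoietin-like 4). They were chosen by name: every junction row that carried 1 of these 5 gene identifiers was taken, which gave 57 of the 350863 junction rows and 5 of the 35224 genes in the tables. The measurement was ribosome profiling, in which stretches of messenger RNA covered by a ribosome survive nuclease digestion and are sequenced as footprints. K562 is an established erythroid-like leukemia line and HepG2 an established hepatocyte-like liver tumor line, and the labels give 2 samples of each, with no treatment or genetic change named for either. All samples were handled alike: cycloheximide, which holds elongating ribosomes in place, was present at lysis, footprints were cut with RNase I and ribosomal RNA was depleted. The deposited junction counts are 1 table per line that pools its 2 samples, so no value here has a replicate error or a p-value. The intervals given are exact, at the 95% level, and describe counting error alone; the reads carry no molecular identifiers, so copies of a molecule may be counted more than once.

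Fibrinogen is the plasma protein that thrombin turns into fibrin, the mesh of a blood clot. Hepatocytes make it as a hexamer with a pair of each chain, joined by disulfide bonds in the endoplasmic reticulum, and in the liver the 3 genes are known to be induced together by interleukin 6 in the acute phase response. Alpha and gamma chains each come in a common and a minor form that differ at the carboxyl end: alpha E arises by splicing a further exon onto alpha, and gamma prime by ending the message inside the last intron that the gamma A form removes. FGL1 and ANGPTL4 are secreted proteins that do not enter the hexamer. FGL1 is a hepatocyte product known as a growth factor of liver cells and as a ligand of the immune checkpoint receptor LAG3, and ANGPTL4 is an inhibitor of lipoprotein lipase that is known to respond to fasting and to low oxygen.

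The ends of the alternative forms decide which footprints a junction table can count, and their sequences are shown for that reason. Each begins with the last 15 bases before the donor site in lower case, and capitals mark the coding bases after it, as annotated in GENCODE release 29 on GRCh38. For the gamma forms the capitals run to the end of the stop codon.
gamma A: gggggagccaaacagGCTGGAGACGTTTAA
gamma prime: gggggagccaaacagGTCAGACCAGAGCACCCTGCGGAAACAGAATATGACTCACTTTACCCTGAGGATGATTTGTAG
alpha: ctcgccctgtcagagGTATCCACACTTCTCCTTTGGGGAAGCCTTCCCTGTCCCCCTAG
alpha E (first 15 of its bases after the junction): ctcgccctgtcagagACTGTGATGATGTCC
Gamma A has 15 coding bases beyond its last junction, which are 4 codons and the stop codon, and gamma prime reads on into the intron for 63 bases, or 20 codons and the stop. The gamma A and gamma prime ends share only the first base after the donor. Alpha reads on for 44 bases, with 13 codons complete after the donor, whereas alpha E has 710 bases after the junction, and these 2 ends share no first base. Only gamma A and alpha E therefore leave a footprint that spans the junction. Footprints on the ends of gamma prime and alpha are in no junction row, and neither form can be counted here.

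Whole-table facts were as follows. The HepG2 table held 9927809 uniquely mapped junction reads (82.7% of mapped) and K562 had 7487508 (74.0%). All 7 hepatocyte markers were higher in HepG2, with 660486 reads in HepG2 and 93 in K562, and all 7 erythroid or myeloid markers that could be compared were higher in K562, with 2 and 13360 reads. Of the markers of other cell types, PECAM1 (endothelial) had 39 reads in HepG2 and 2 in K562, whereas COL1A1 and COL1A2 (fibroblast) and ITGA2B (megakaryocyte) were higher in K562.

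The first comparison asked how much of each gene was being translated in HepG2 and in K562. A call of higher in HepG2 or in K562 required the entire interval of the read ratio, scaled by effective depth, to lie past 2-fold. FGG had 71823 uniquely mapped reads in HepG2 and 6 in K562, FGA had 25654 and 3, and FGB had 23848 and 5. FGL1 had 5550 and 1. The chains and FGL1 were thus among the strongly translated genes of HepG2 and at trace level in K562, and 4 of the 5 members were called higher in HepG2. Over all 10956 genes compared, 2402 were called higher in HepG2 (21.9%) and 1836 higher in K562 (16.8%), with a median log2 ratio of 0.01. With total reads as depth the split was 1925 and 2656, and the same 4 members were called. No member was called higher in K562. ANGPTL4, at 30 and 12 reads, was past neither limit.

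**Figure D1:**
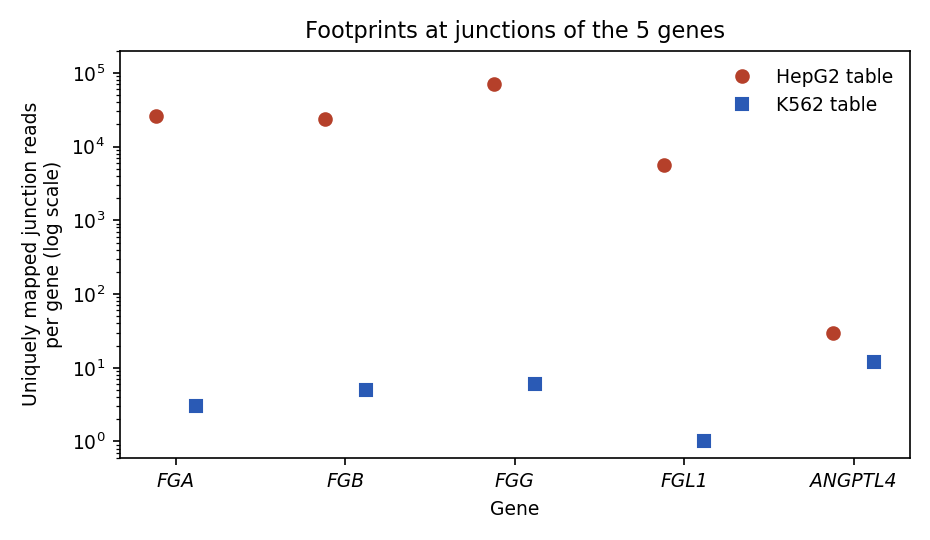
Uniquely mapped junction reads per gene (log axis) in the HepG2 table (red circles) and the K562 table (blue squares), 1 point per pooled table with no error bar. FGA, FGB, FGG and FGL1 lie between 5550 and 71823 in HepG2 and between 1 and 6 in K562, while the 2 points of ANGPTL4, 30 and 12, lie close together.

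The ratio of HepG2 to K562 was 12026 for FGG (5525 to 32772), 8591 for FGA (2939 to 41662) and 4792 for FGB (2053 to 14759). FGL1 had a ratio of 5576 (1000 to 220275). The intervals of these 4 genes overlap one another, so their ratios cannot be ranked at this depth, and their width comes from the few K562 reads. ANGPTL4 had a ratio of 2.51 (1.25 to 5.39), a log2 ratio of 1.33, and its interval lay above equality but not past 2-fold. With total reads as depth its ratio was 1.88 (0.934 to 4.03), an interval that includes equality. Because only footprints were counted, more message and more ribosomes per message cannot be told apart for any of these genes.

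The 14 K562 reads of the 3 chains were spread over 3 junctions of FGA, 3 of FGB and 4 of FGG, none with more than 2 reads. FGL1 had its single K562 read at its last coding junction. Per 10000 HepG2 reads, K562 held 1.17 reads of FGA, 2.10 of FGB, 0.835 of FGG and 1.80 of FGL1. Albumin (ALB), the main plasma protein of the liver, stood at 1.17 on the same measure with 349063 and 41 reads. Of the 89 genes with 10000 or more reads in HepG2, 20 had fewer than 10 K562 reads per 10000, and the 17 of these that are not members ranged from 0 to 4.79 with a median of 1.17. The K562 trace of the fibrinogen chains and of FGL1 is given beside these genes as a description, since they were picked by the same measure, and its source was not tested.

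The 3 chain genes lie next to each other on chromosome 4, within 50012 bases from 154562956 to 154612967 (GRCh38). FGB (ENSG00000171564.11, chr4:154562956-154571086) is on the plus strand. FGA (ENSG00000171560.14, chr4:154583126-154590766) and FGG (ENSG00000171557.16, chr4:154604134-154612967) are on the minus strand. Together they took 121325 reads, or 1.26% of all single-gene reads in HepG2: 0.748% for FGG, 0.267% for FGA and 0.248% for FGB. Raw sums depend on how many junctions a gene has, so levels were compared as mean uniquely mapped reads per coding junction of the main transcript.

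On that scale FGG had 7974 reads per coding junction over 9 junctions, FGA had 6356 over the 4 junctions of the alpha form, and FGB had 3407 over 7. Of 14053 genes with at least 3 coding junctions, FGG ranked 6, FGA 9 and FGB 23 in HepG2. FGL1 followed at 855 reads per junction over 6 junctions (rank 152), and ANGPTL4 was far below at 4.83 over 6 (rank 7460). In K562 the means were 0.75 for FGA, 0.714 for FGB, 0.667 for FGG, 0.167 for FGL1 and 1.83 for ANGPTL4. ANGPTL4 was thus the lowest of the 5 in HepG2 and the highest in K562, though in K562 every one of these means rests on 12 reads or fewer.

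Chain balance, the question that a hexamer with equal numbers of each chain raises, was then taken from these levels. FGA stood at 0.797 of FGG (0.786 to 0.809), FGB at 0.427 of FGG (0.421 to 0.434), and FGA at 1.87 times FGB (1.83 to 1.90). The spread among junctions of a gene was much wider than these counting intervals: the lowest and highest junction were 2786 and 8244 in FGA, 625 and 6298 in FGB, and 852 and 14963 in FGG. Their ranges overlap for every pair of chains. With the median junction as the level, FGA was 1.10 times FGG, so the order of FGA and FGG turns with the measure. FGB was below FGG and below FGA with both the mean and the median, at 0.534 of FGG with the median.

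Other ways of setting a level kept FGB below FGG but moved FGA more. With the first and last coding junction of each chain left out, FGA was 0.514 of FGG and FGB 0.373. For FGA this left only the junctions with 7060 and 2786 reads, the latter its lowest, so the value rests heavily on that junction. With all coding junction reads divided by coding length, FGA was 0.241 and FGB 0.296 of FGG, and this was the only measure that placed FGA below FGB. The alpha transcript has 4 coding junctions in 1935 coding bases, and its last exon holds 1425 of those bases with no coding junction. FGG has 9 junctions in 1314 bases and FGB 7 in 1476, so a count per length is not on the same footing for FGA.

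**Figure D2:**
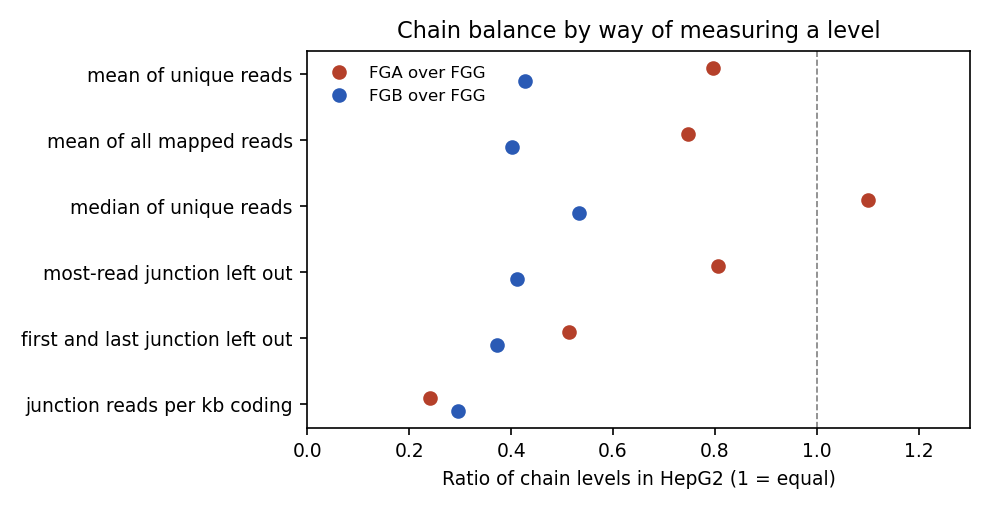
Ratio of the level of FGA (red) and of FGB (blue) to that of FGG in HepG2, for 6 ways of setting a level, with the dashed line at equality. FGB stays between 0.296 and 0.534, whereas FGA runs from 0.241 to 1.1 and crosses the line only with the median.

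Within each gene the junctions were read in order from the 5′ end. The alpha chain of FGA has 644 codons and carries fibrinopeptide A, which thrombin cuts off this chain. FGA had 7332, 7060, 2786 and 8244 HepG2 reads at its 4 junctions. FGB, with 491 codons, had 740, 625, 5789, 3505, 6298, 1631 and 5258. FGG, with 437 codons in gamma A, had 852, 8918, 12980, 5056, 6568, 14963, 13611, 4928 and 3892. The beta and gamma chains thus started low, with the lowest counts at the first 2 junctions of FGB and at the first of FGG, while FGA was high from its first junction on.

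The 30 bases around the least and the most read coding junction of each chain are given to show what lies under a footprint there, with the exon before the junction in lower case and the exon after it in capitals.
FGA junction 3: tttcctcagccaataACCGTGATAATACCT
FGA junction 4: atgaaacgactggagGTGGACATTGATATT
FGB junction 2: gctgacccagacctgGGGGTGTTGTGTCCT
FGB junction 5: atacagaaaatggagGATGGACAGTGATTC
FGG junction 1: tcaacatgtgtagcaTATGTTGCTACCAGA
FGG junction 6: actgtgtttcagaagAGACTTGATGGCAGT
FGB junction 2, the least read of that gene, had a GC content of 63.3%, and its most read junction had 40.0%. In FGG the least and most read junctions had 40.0% and 43.3%, and in FGA both had 40.0%. Over the 27 coding junctions of FGA, FGB, FGG and ANGPTL4, none of the 756 windows of 29 bases that span a junction occurred in an annotated transcript of another gene.

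The first coding junction lay 54 coding bases after the start in FGA, 114 in FGB, 78 in FGG and 63 in FGL1. Relative to the mean of the gene's other coding junctions it stood at 1.22 in FGA, 0.192 in FGB, 0.0961 in FGG and 0.572 in FGL1. In 2679 other genes with a first junction 31 to 120 coding bases after the start, the same ratio had a median of 0.627 and an interquartile range of 0.245 to 1.34. FGG was above 13.4% of them, FGB above 20.8%, FGL1 above 47.4% and FGA above 71.3%. The low first junctions of FGB and FGG are therefore below that interquartile range but not outside what other genes show. The coefficient of variation over coding junctions was 0.383 in FGA, 0.617 in FGG and 0.714 in FGB, against a median of 0.837 in 84 other genes with 1000 or more reads per junction. For FGA, the values 1.22 and 0.383 use the 4 alpha junctions and leave out the alpha E junction, which had only 232 reads. Its evenness therefore holds for the alpha junctions alone.

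**Figure D3:**
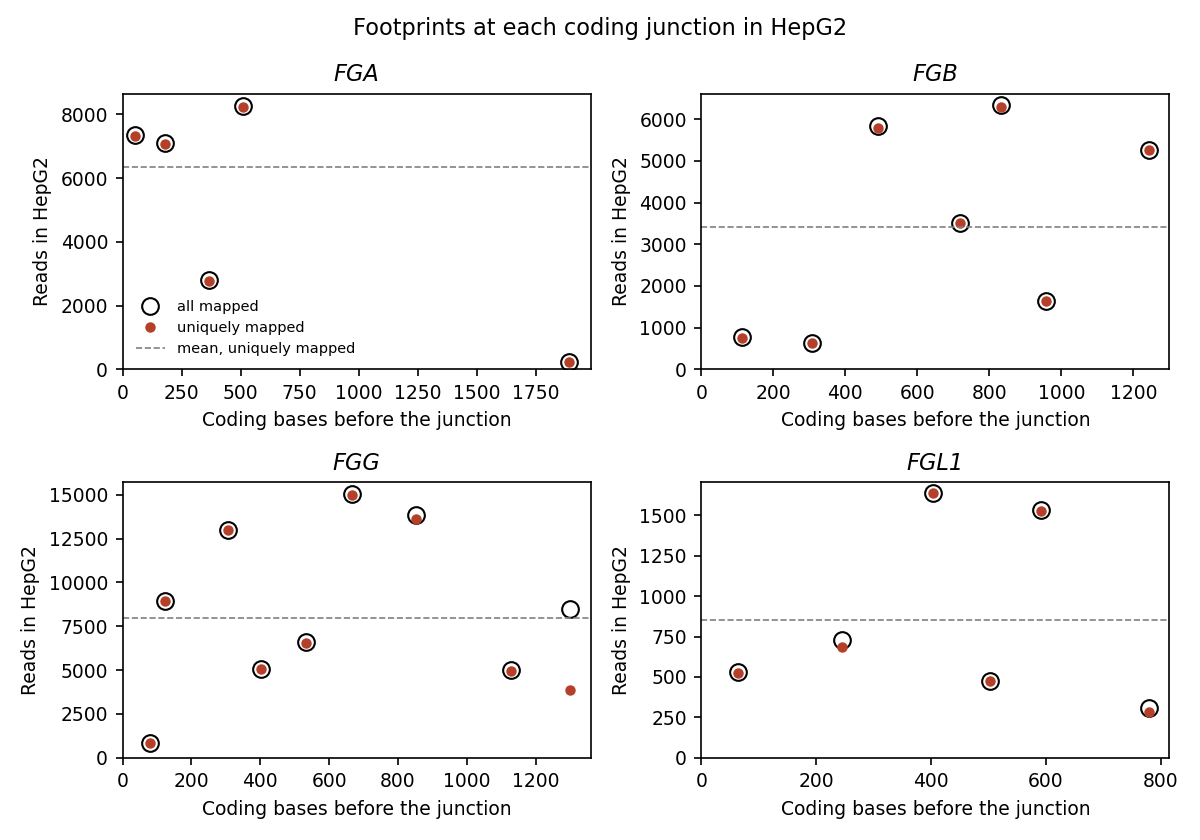
HepG2 reads at each coding junction of FGA, FGB, FGG and FGL1 against the coding bases before it, with uniquely mapped reads as red points, all mapped reads as open circles and the mean of the uniquely mapped reads as a dashed line (for FGA over the 4 alpha junctions). Points and circles lie farthest apart at the last junction of FGG, where 3892 of 8510 reads were unique, and the last point of FGA, the alpha E junction, is near 0 at 232 reads.

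The minor alpha form was read from its own junction. The alpha E junction, which joins exon 5 to exon 6 across the intron chr4:154584834-154585537 and extends the chain from 644 to 866 codons, had 232 uniquely mapped reads in HepG2 and 0 in K562. This was 3.65% (3.19 to 4.15) of the mean of the 4 junctions that alpha and alpha E share, and the same share with all mapped reads. Against the junction just before it, with 8244 reads, it was 2.81%. In 5463 other genes whose last coding junction lay more than 30 bases before the end of the stop codon, that junction stood at a median of 0.709 of the mean of the others (interquartile range 0.287 to 1.41), and 6.92% of them were below FGA. Since single junctions of FGA differed by up to 2.96-fold among themselves, the share of alpha E is known only within a spread of that kind.

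The common gamma form was read from the last junction of FGG, across the intron chr4:154604355-154604896, which gamma prime retains up to its own end. With uniquely mapped reads this junction had 3892 reads, or 45.9% (44.4 to 47.4) of the mean of the other 8 coding junctions. With all mapped reads it had 8510, or 99.6% (97.4 to 102) of their mean. Reads that map to several places may be counted repeatedly in that column, so its interval is too narrow. Only 45.7% of the reads mapped there were unique, whereas the other coding junctions of FGG had unique shares of 98.2% to 100.0%. Of the 5070 reads of FGG that were not unique, 4618 were at this junction. The apparent shortfall at the gamma A junction thus depended on which column was read, and no share of gamma prime was derived from it.

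The last junction of FGG lies 15 bases before the end of the stop codon, so a footprint that spans it comes from a ribosome close to termination. In 349 other genes whose last coding junction lay within 30 bases of that end, it stood at a median of 0.751 of the mean of the others with uniquely mapped reads (interquartile range 0.171 to 1.72), and 39.3% of them were below FGG. With all mapped reads their median was 0.755, and 58.2% were below FGG. The unique share of FGG was below the interquartile range of these genes: in the 279 of these genes with 10 or more mapped reads at that junction it had a median of 99.5% (interquartile range 92.7 to 100), and 7.89% of them were below FGG. No annotated transcript of another gene held a 29-base window of this junction, and what the other places of those reads were was not tested.

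**Figure D4:**
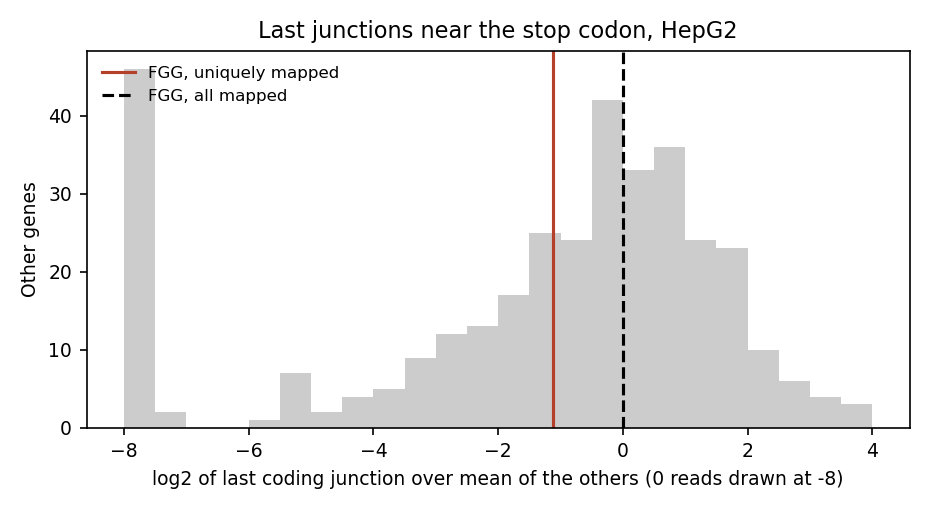
Histogram of the log2 ratio of the last coding junction to the mean of the other coding junctions (uniquely mapped reads) in 349 other genes of HepG2 whose last junction lies within 30 bases of the end of the stop codon, with genes at 0 reads drawn at -8. FGG is drawn as a red line for uniquely mapped reads (ratio 0.459) and as a dashed line for all mapped reads (ratio 0.996), both well inside the range of the other genes.

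Other annotated splice choices in the chain genes were used rarely in HepG2. The junction of FGB that skips exon 7 had 0 reads beside 1631 at the same donor, which allows a share of up to 0.184%, and an alternative acceptor after the first exon had 2 of 742 (0.270%, 0.0327 to 0.970). In FGG an alternative acceptor at the second coding junction had 9 of 8927 reads (0.101%, 0.0461 to 0.191), and the longer form of the exon before the sixth junction had 0 of 6568, which allows up to 0.0457%. The most used alternative was a junction at the start of FGG (chr4:154612436-154612744) that enters the second exon from a donor further upstream, with 46 of 898 reads (5.12%, 3.77 to 6.77) beside 852 for the main junction. In K562 none of these alternative junctions had a read, at sites with at most 2 reads in all.

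The start regions of the 3 neighbouring chain genes and of ANGPTL4 were searched for known promoter elements, and that of FGL1 was not used here. Within 250 bases before and 50 after each start, from RefSeq on GRCh38.p14, both strands were scanned for an HNF1 recognition element (GTTAAT), a C/EBP element (TTGCNNAA) and a TATA box (TATAAA). FGA and FGB each held the HNF1 element, 52 and 51 bases before the start, and the C/EBP element, 141 and 101 bases before it. A stretch of 120 bases that ends 41 bases before the start, the more upstream one for FGB, is printed 5′ to 3′ on the strand of the gene. These matches are in capitals, with no match overlapping another.
FGA (chr4:154590783-154590902, minus strand): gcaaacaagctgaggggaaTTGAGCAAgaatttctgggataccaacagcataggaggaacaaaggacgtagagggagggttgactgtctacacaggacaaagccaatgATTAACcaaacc
FGB (chr4:154562820-154562939, plus strand): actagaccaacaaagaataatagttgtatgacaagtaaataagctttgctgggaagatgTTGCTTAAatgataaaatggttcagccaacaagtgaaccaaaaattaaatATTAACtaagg
Of 35116 promoters of the same length, 6.23% held the HNF1 element, 9.05% the C/EBP element and 10.7% the TATA box. Neither element was present in the windows of FGG and ANGPTL4, and of the 4 genes scanned only ANGPTL4 had a TATA box, 29 bases before its start. A match is a description of the letters and not a bound site.

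FGL1 (ENSG00000104760.16, chr8:17864380-17910365, minus strand) encodes a protein of 312 codons that is mostly fibrinogen-like domain. Its 6 coding junctions had 527, 688, 1638, 473, 1525 and 281 HepG2 reads from the 5′ end, a 5.83-fold range. They summed to most of the 5550 reads of the gene, and the remainder lay in the untranslated leader. At the donor of the first exon, 345 of 407 reads (84.8%, 80.9 to 88.1) went into a leader exon of 127 bases and 62 (15.2%) went straight to the exon with the start codon. At the acceptor of that start exon, however, 62 of 64 reads (96.9%, 89.2 to 99.6) came from the first exon and 2 (3.13%) from the 127-base exon. Footprints thus covered the entry into the leader exon but hardly its exit, which is 17 bases before the start codon.

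The 345 reads at the leader junction, 144 bases before the start, were 40.3% of the mean of 855 at the coding junctions. In 592 leader junctions of other genes more than 100 bases before the start, the same share had a median of 4.72% (interquartile range 0 to 35.4), and 76.0% were below that of FGL1. The annotated leader that includes this exon holds 3 upstream ATG triplets, 221, 185 and 137 bases before the main start. Their reading frames have 19, 7 and 4 codons, all end before the main start, and none is in frame with it. The last of them begins 7 bases past the leader junction. Whether ribosomes initiate at any of them was not tested.

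ANGPTL4 (ENSG00000167772.11, chr19:8363289-8374373, plus strand), with 406 codons, had too few reads for a profile. Its 6 coding junctions had 0, 2, 1, 20, 5 and 1 reads in HepG2 and 0, 1, 1, 4, 4 and 1 in K562. The fourth junction alone held 20 of the 30 HepG2 reads, so the difference between the lines rests largely on 1 position. At its acceptor 20 of 21 reads (95.2%, 76.2 to 99.9) came from the adjacent exon, and the exon-skipping junction had 1 read in each line. With the most-read junction left out, ANGPTL4 had too few reads to be compared.

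By closeness of level in both tables, the gene nearest to FGA was FGG and the gene nearest to FGG was FGA, at a distance of 0.362 on a log2 scale, out of 14053 genes. FGB was nearer to the plasma proteins RBP4 (0.238) and A2M (0.242) than to either partner chain. After FGG, the nearest to FGA were APOB (0.625) and A2M (0.661), and after FGA, the nearest to FGG were APOH (0.690) and FABP1 (0.874). FGL1 lay near VTN (0.646), CFI (0.744) and ORM1 (0.777). The neighbours of these 4 are mostly secreted products of the liver. ANGPTL4, in contrast, lay near REV3L (0.0273), NPHP4 (0.0636) and ZNF711 (0.126), genes with few reads in both lines. The measure uses 2 tables and thus only 2 values per gene. The K562 value rests on 3 coding junction reads for FGA, 5 for FGB, 6 for FGG and 1 for FGL1. Single K562 reads can therefore change these distances and the order of the neighbours, which are given as a description.

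The wider family of fibrinogen-like domain proteins was mostly unread in both lines. Of 21 genes, 5 had enough reads to compare, with 2 higher in HepG2, 1 higher in K562 and 2 past neither limit. Their median log2 ratio was 1.33 against 0.01 over all genes, of which 21.9% were higher in HepG2 and 16.8% in K562. With only 5 genes compared, the counts are not read as different from those shares. FGL1 and ANGPTL1, the latter with 41 and 0 reads and at least 10.7-fold higher, were the 2 in HepG2. ANGPT1, a ligand of the TIE2 receptor, had 0 reads in HepG2 and 308 in K562, at least 82.6-fold higher in K562. With total reads as the depth, 2 were higher in each line.

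Of 16 genes that clot, crosslink or dissolve fibrin, 13 were compared, with 8 higher in HepG2, 2 higher in K562 and 3 past neither limit (median log2 ratio 4.15). Over all genes compared the shares were 21.9% and 16.8%, so the count of 2 in K562 is near the share over all genes. FN1, fibronectin, which is crosslinked to fibrin, had 121812 and 480 reads, a ratio of 255 (233 to 279). F2, prothrombin, the precursor of the enzyme that cuts fibrinogen, had 8013 and 1. TFPI, the inhibitor of the tissue factor pathway, had 11866 and 15158, a ratio of 0.786 (0.768 to 0.806). The 2 genes higher in K562 belong to fibrinolysis: PLAT, tissue plasminogen activator, with 0 and 148 reads, and PLAUR, the urokinase receptor, with 13 and 73. Plasminogen itself, PLG, chosen here after its values were seen, had 453 and 0.

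All 20 genes for folding and export of secreted proteins were compared. Of these, 14 were higher in HepG2, 0 higher in K562 and 6 past neither limit, beside 21.9% and 16.8% of all genes called in each direction. The median log2 ratio was 1.67, far smaller than the 12.23 to 13.55 of the chains. CALR, the chaperone calreticulin, had 32866 and 9450 reads, a ratio of 3.49 (3.41 to 3.58). HSP90B1, another chaperone of the endoplasmic reticulum, had a ratio of 3.07 (3.002 to 3.15), and CANX, calnexin, had 1.26 (1.23 to 1.28) and was past neither limit. SEC23A, a coat protein of export vesicles, was chosen after its values were seen and had the highest ratio of the list at 32.9 (29.97 to 36.2), with 15056 and 460 reads.

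Of 13 genes that control fibrinogen in the acute phase and in hepatocytes, 9 were compared. Among them 5 were higher in HepG2, 0 higher in K562 and 4 past neither limit (median log2 ratio 2.63). The shares over all genes were 21.9% higher in HepG2 and 16.8% higher in K562. HNF4A, a hepatocyte transcription factor, had 1545 and 0 reads, at least 420-fold higher in HepG2. STAT3 and JAK1, which carry the interleukin 6 signal, had ratios of 1.53 (1.46 to 1.60) and 1.07 (0.984 to 1.15) and were past neither limit. CEBPA, CEBPB and CEBPD have no junction row in the tables and are not analysed here.

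Of 16 genes that control or bind ANGPTL4 and FGL1, 12 were compared. Among them 8 were higher in HepG2, 1 higher in K562 and 3 past neither limit (median log2 ratio 3.32). Beside these stand 21.9% of all genes higher in HepG2 and 16.8% higher in K562. HIF1A, a factor of the low-oxygen response, had 4144 and 379 reads, a ratio of 10.98 (9.89 to 12.2), and its relative EPAS1 had 947 and 356, a ratio of 2.67 (2.36 to 3.03). PCSK6, a proprotein convertase, was higher in HepG2 with 918 and 102 reads, a ratio of 9.04 (7.36 to 11.2). FURIN, a convertase known to cleave ANGPTL4, was higher in K562 with 149 and 590 reads, 3.94-fold (3.29 to 4.75). The target of ANGPTL4, LPL, and the receptor of FGL1, LAG3, had 0 reads in both lines.

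**Figure D5:**
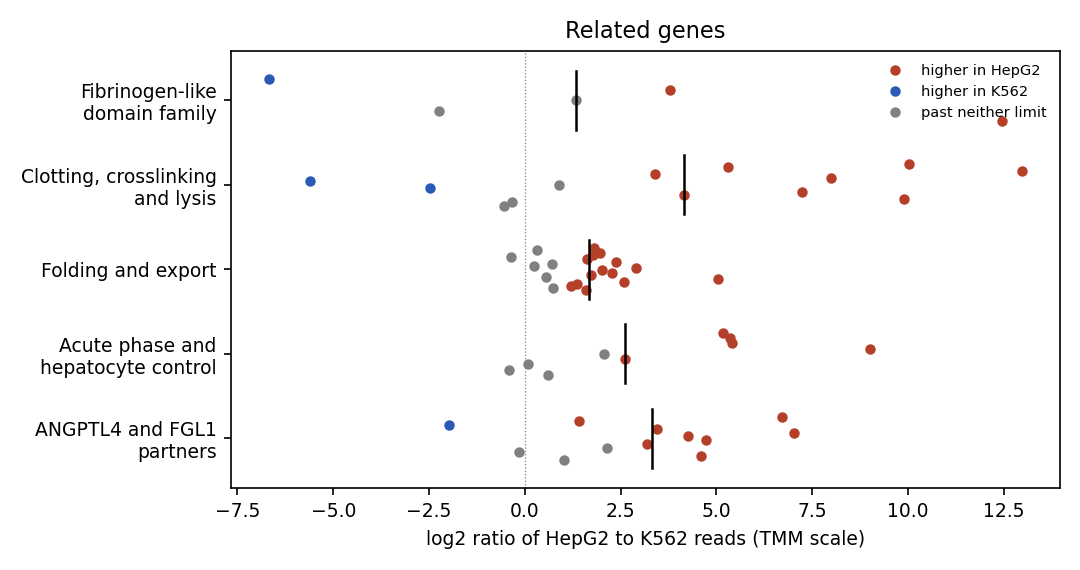
log2 ratio of HepG2 to K562 reads for each compared gene of the 5 lists, with black bars at the list medians and colors for genes higher in HepG2 (red), higher in K562 (blue) or past neither limit (grey); genes with 0 reads in a table are drawn at a floor of 3 reads. The medians lie at 1.33, 4.15, 1.67, 2.63 and 3.32 from top to bottom, all to the right of 0.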

How the data were processed

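Per the file headers, the deposited junction tables hold unnormalized counts, in separate columns for all mapped and for uniquely mapped reads. The submitters' processing notes name cutadapt, Bowtie2, STAR 2.6.0 and the build GRCh38; which annotation release and junction counter they used is not given in the sources used here. Each table pools the 2 samples of a line. Signal tracks are not analysed here. Of 350863 junctions, 349756 (99.7%) matched an intron of GENCODE release 29 exactly, and names were found for 34580 of 35224 gene identifiers.

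Uniquely mapped reads were summed per gene, without the 6033 junctions that several genes share. The comparison took genes with a sum of at least 20 reads, with TMM factors from edgeR 4.0.16 and exact 95% conditional binomial (Clopper-Pearson) intervals from scipy 1.17.1. Where a table had 0 reads, ratios and list medians used a floor of 3 reads, and "at least" gives the bound of the interval. A fold of 2 was the limit. Shares have Clopper-Pearson intervals, and the upper share for 0 reads is 3 reads of the total.

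On counts simulated for the comparison of HepG2 with K562 over 10843 genes, genes with a true 2-fold difference were called in 1 of 48 cases, those with 3-fold in 38 of 50, with 4-fold in 44 of 50 and with 8-fold in 50 of 50, and 0 of 10645 unchanged genes were called. These counts were drawn with Poisson error alone, the error that the intervals assume, and hold no variation between samples. They therefore check the procedure and do not give the rate of false calls in the real tables. The members, lists and tests were chosen with earlier results of these data known. Named genes were the 5 members, the up to 3 most-read genes of each list, list members called against the list median, and the 3 genes nearest to each member in log2 of depth-scaled reads per coding junction with a pseudocount of 0.01. A list member is not reported here. Others named are markers or were chosen after their values were seen. Alternatives covered scaling (total reads, DESeq2 1.42.0 size factors), reads counted, read minimum, interval level, junctions summed and the way a level was set.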

Additional observations from a re-analysis of the deposited data

How the results depend on the processing

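FGA, FGB, FGG and FGL1 were called higher in HepG2, and ANGPTL4 was past neither limit where it could be compared, with all mapped reads, under total reads as depth or DESeq2 size factors, with a minimum of 1 or 100 reads, with 99% intervals, and with the most-read junction left out and coding junctions only. ANGPTL4 could not be compared with a minimum of 100 reads or with its most-read junction left out. Leaving out the FGG junction with the lowest unique share, an alternative chosen after seeing the data, changed no call. Total reads as depth shifted the median log2 ratio of all genes from 0.01 to -0.41 and the calls from 2402 higher in HepG2 and 1836 in K562 to 1925 and 2656; the log2 ratio of ANGPTL4 was then 0.91, with an interval that includes equality, and those of the other members were 11.81 or more. Total reads as depth also gave 2 genes of the fibrinogen-like family higher in K562 in place of 1. With it 11 folding and export genes were higher in HepG2 in place of 14, and 7 genes that control or bind ANGPTL4 and FGL1 in place of 8. A minimum of 100 reads, which compares fewer genes, gave 1 gene of that family higher in HepG2 in place of 2, 1 clotting gene higher in K562 in place of 2, and 3 acute phase genes higher in HepG2 in place of 5.

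FGA over FGG, 0.797, was 0.747 with all mapped reads, 1.1 with the median junction, 0.514 without the first and last junctions and 0.241 per kilobase. FGB over FGG, 0.427, was 0.401, 0.534, 0.373 and 0.296 in the same order and 0.412 without the most-read junctions. The last junction of FGG, 45.9% of the others, was 99.6% with all mapped reads, 50.3% against their median and 79.0% against the junction before it. The alpha E junction, 3.65%, was 2.81% against the junction before it. The causes were not tested. No HepG2 to K562 ratio of a member changed direction, but FGA moved from below FGG to above it with the median junction, and below FGB per kilobase. No paired analysis was possible because each table pools the samples of a line, and for the same reason no replicate could be left out. The few K562 reads of the chains, 14 in all, set the width of their intervals.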
